A study of Saccharomyces cerevisiae with 94 samples.

Results

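The mRNAs of budding yeast that lacks the deadenylase Ccr4 (ccr4Δ) were compared with those of wild type in their abundance and in their pA-tail lengths, both read by Nanopore direct RNA sequencing, which passes native RNA through a pore and measures its tail read by read. The comparison used every transcript with at least 30 reads in one of the pools, which gave 5151 of the 8033 transcripts that the tables locate in the genome, 4820 of them mRNAs. For tails, 30 reads were required in each pool, which left 4292 mRNAs. The labels list 6 ccr4Δ and 8 wild-type samples of the W303 strain, among 94 samples in the series. They give growth in YPDA, a rich glucose medium, at 25 °C for both strains, whereas the titles of the wild-type samples and the names of the pooled columns used here say 30. Each strain has a single pooled column, so there is 1 value per strain, no spread between samples, and no test of any difference. Every interval or error below covers the counting or reading of molecules only.

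Ccr4 is the main catalytic deadenylase of the Ccr4-Not complex, a large assembly around the scaffold Not1 in which the nuclease Pop2 (Caf1) is the other active subunit. Deadenylases remove the adenosines that are added to an mRNA in the nucleus and are covered by the poly(A)-binding protein Pab1 in the cytoplasm. A tail that has become very short is usually followed by removal of the cap and digestion of the body of the mRNA, and Pan2-Pan3, the other cytoplasmic deadenylase, is known for trimming long tails.

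The ccr4Δ pool held 2337459 reads and the wild-type pool 4916775, after ENO2 was dropped and transcript names without coordinates were left out. In place of replicates, each value was also read in sub-pools of the ccr4Δ reads, of 1025929 and 1311530 reads, the first with a deposited column of its own and the second being the remainder of the pool. It was likewise set against 6 other wild-type references, a second column named for 25 °C (3844655 reads) and 5 single libraries of undigested or untreated wild-type RNA (86022 to 1264045 reads). The read table of the study gives the total of this second column to a single wild-type replicate at 30 °C, so it may be 1 library rather than a pool, and its temperature is uncertain. It is no mere subset of the main pool, as it held more reads than that pool for 2127 of 7044 transcripts, but whether both share reads was not tested. Wild-type references differed among themselves by much: of 5258 transcripts, 476 were at least 2-fold higher and 547 at least 2-fold lower in the second wild-type column than in the main one. ENO1, a near copy of ENO2, had 24058 ccr4Δ reads and is listed at 0 in both wild-type columns, so its level cannot be interpreted.

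The CCR4 mRNA itself (chromosome I, 110620 to 113435, minus strand, R64 build) checked the label of the mutant. It had 4.28 rpm (reads for each 1000000 reads of the pool) in the ccr4Δ pool, with 5.85 and 3.05 in the sub-pools, against 33.6 in the wild-type pool, 23.9 in the second wild-type column and 14.4 to 58.1 in the 5 libraries. The level was thus 7.49-fold lower, a log2 change of -2.91 with a counting interval of -4.06 to -2.06, and no ccr4Δ value overlapped a wild-type one. Levels here and below are shares of a library of many cells, so fewer cells that express a gene and less of its RNA per cell cannot be told apart.

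The mating type of the pools differed as well. STE3, the receptor for a-factor that only α cells make, had 805 reads in the ccr4Δ pool and 30 in the larger wild-type pool, and MF(ALPHA)1, a gene for α-factor, had 391 against 2. Transcripts named for the MATALPHA and HML loci had 126 and 121 reads in ccr4Δ against 5 and 17. The genes of a cells showed the reverse, with 30 ccr4Δ reads against 1011 wild-type reads for STE2, the α-factor receptor, 17 against 423 for BAR1, the protease that degrades α-factor, 27 against 630 for STE6, the a-factor exporter, and 9 against 300 for AGA2, an agglutinin subunit. In all, 8 of 13 mating type markers had enough reads, 3 of them at least 2-fold higher in ccr4Δ and 5 at least 2-fold lower. The pattern was the same in both sub-pools and against the second wild-type column, so that the ccr4Δ reads look like those of α cells although the strain list of the study gives this strain as MATa. That list also places the ccr4Δ strain in another background than the W303 of the labels, as a neomycin-marked deletion with a matched wild type of its own, and which wild type the reference reads come from is not stated. URA3, which makes uracil, was lower by a log2 change of -0.96 against the main wild-type pool and higher by 0.41 against the second column. The deletion and the strain background therefore cannot be told apart in any result below.

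Nearly every mRNA carried a longer mean tail in ccr4Δ. Of the 4292 mRNAs, 4143 (96.5%) were longer and 149 shorter. The median over mRNAs of the mean tail was 41.1 adenosines in wild type and 48.4 in ccr4Δ, and the median change was 6.42 adenosines, with 4.24 and 8.90 at the quartiles. A lengthening of at least 5 adenosines was found for 2870 mRNAs (66.9%) and one of at least 10 for 785, whereas 18 (0.419%) were shorter by at least 5. The error from the number of reads, approximated from the spread between the 5th and 95th percentile tails, had a median of 1.96 adenosines, and 3373 mRNAs were longer and 17 shorter by more than 2 such errors. Both sub-pools showed the same direction, with median changes of 7.02 and 5.25 and 2778 of 2971 mRNAs longer in both. The lengthening was present against each other wild-type reference too, with medians of 6.85 to 9.84 adenosines and 96.4 to 99.3% of mRNAs longer.

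**Figure D1:**
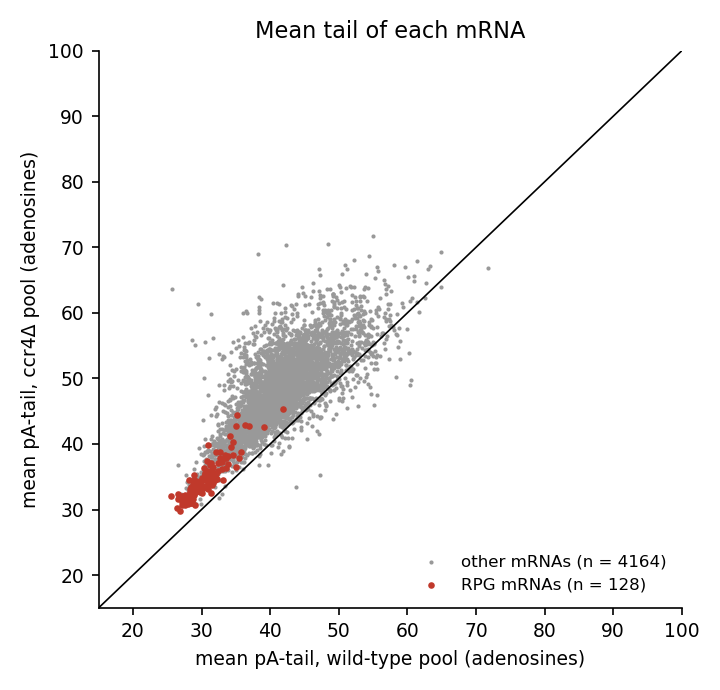
Mean pA-tail length in adenosines of each mRNA that passed 30 reads in each pool, wild-type pool on the horizontal axis and ccr4Δ pool on the vertical axis, with the line of equal length. RPG mRNAs (red, n = 128) and other mRNAs (grey, n = 4164) are shown; 4143 of the 4292 points lie above the line.

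Against the main wild-type pool, the added length sat in the short tails. For each mRNA the tail below which 5% of its reads lie was compared, and its median over mRNAs went from 13 adenosines in wild type to 25.1 in ccr4Δ, a median change of 12 adenosines with 99.6% of mRNAs longer. At the lower quartile of the tails, 24 adenosines became 37 (median change 10.8), and at the middle of the distribution 39 became 46 (median change 6). The difference shrank steadily from there, to 2.5 adenosines at the upper quartile and 0.35 at the 95th percentile, where 75 and 75.2 adenosines were almost the same and 51.8% of mRNAs were longer. The tails of an mRNA consequently covered a narrower range in ccr4Δ, with 61.9 adenosines between the 5th and 95th percentile in wild type and 49.6 in the mutant, narrower for 3953 mRNAs (92.1%).

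Among the tails that were read, very short ones were nearly missing in ccr4Δ. The paper states that the sequencing method is less efficient at detecting short-tailed mRNAs, so such tails may be undercounted in both strains. In wild type, 3271 mRNAs (76.2%) had a 5th percentile tail under 15 adenosines, and 73.7% did in the second wild-type column, against 77 mRNAs (1.79%) in ccr4Δ. Under 10 adenosines, the counts were 436 and 3, and under 20 adenosines they were 4122 (96.0%) and 552 (12.9%). This change at the short end held against every wild-type reference, from 8 to 12.3 adenosines at the 5th percentile. The equality at the long end did not: against the second wild-type column the 95th percentile was 7.9 adenosines longer in ccr4Δ, and against the 5 libraries 2.8 to 8.25 longer. The mean tails of those references were 1.25 to 4.36 adenosines shorter than in the main wild-type pool.

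**Figure D2:**
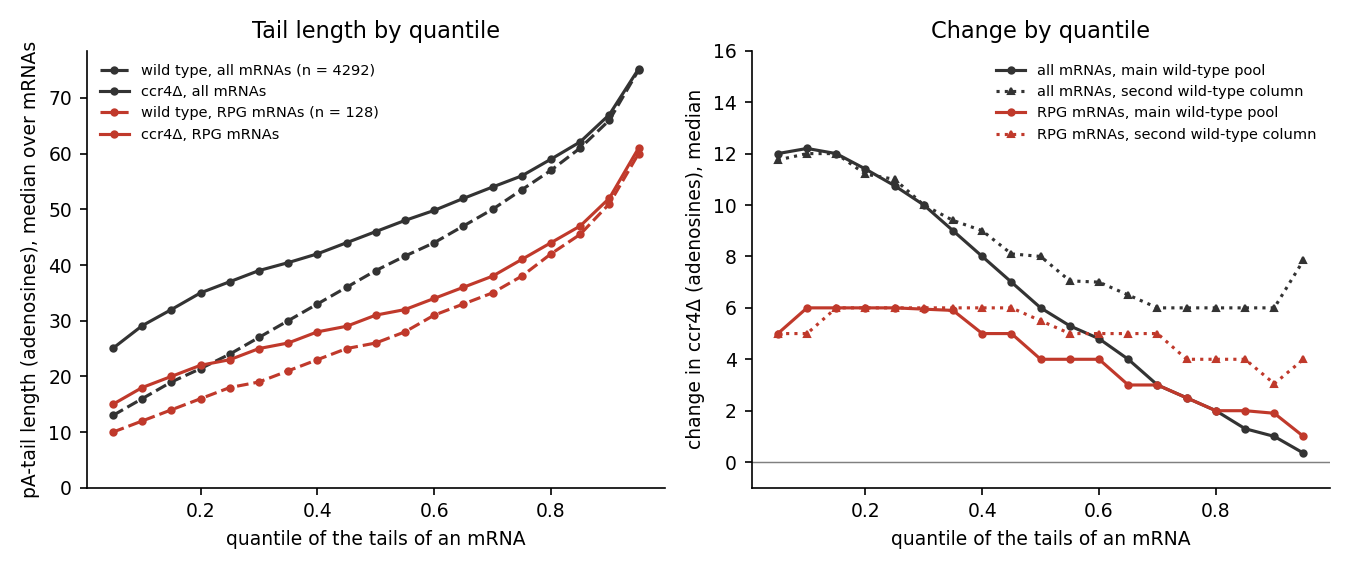
Left, pA-tail length in adenosines at quantiles 0.05 to 0.95 of an mRNA's tails, as the median over all 4292 mRNAs (black) and 128 RPG mRNAs (red) in the wild-type pool (dashed) and the ccr4Δ pool (solid). Right, the median change in ccr4Δ at each quantile against the main wild-type pool (solid) and the second wild-type column (dotted); over all mRNAs it goes from 12 to 0.35 adenosines against the first, and from 11.8 to 7.9 against the second.

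The change differed between abundant and rarer mRNAs. The mRNAs of ribosomal protein genes (RPG), among the most abundant and short-tailed of the cell, went from a median of 30.4 to 34.3 adenosines, with all 128 longer and a median change of 3.89. At least 5 adenosines were gained by 26 of them (20.3%), against 66.9% of all mRNAs. Their 5th percentile tail changed from 10 to 15 adenosines, so a short-tailed population persisted in ccr4Δ for these mRNAs. Individual RPG mRNAs covered a range from RPS0B, with 31.4 adenosines in wild type and 32.5 in ccr4Δ (change 1.14 ± 0.24, reading error), to RPS9A, with 35.1 and 44.4 (change 9.24 ± 0.51), both for proteins of the small subunit. RPL15A, for a protein of the large subunit read 9188 and 20621 times, had 31.0 and 39.9 adenosines, and 40.2 and 39.5 in the sub-pools. Abundant mRNAs other than RPG (72, with a log2 library fraction above -10 in the controls of the Mex67 depletion series) behaved alike, with a median of 33.5 and 37.2 adenosines and a change of 7 at the 5th percentile, while the 4106 mRNAs below that abundance went from 41.4 to 48.7 and changed by 12 at the 5th percentile.

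A separate experiment of the series gives a measure of decay that shares no reads with the comparison, the slope of an mRNA's library fraction over up to 16 min after the export factor Mex67 is depleted (3 replicates). When 1460 mRNAs were ranked by that slope and split into quintiles of 292, the median change of the mean tail in ccr4Δ was 7.28 adenosines in the fastest quintile, then 6.25, 5.91 and 5.53, and 4.48 in the slowest. The 5th percentile tail was near 13 adenosines in wild type for the faster quintiles and 11 for the slowest, and in ccr4Δ it was 25.5 for the fastest and 18 for the slowest. The gain at the short end was thus 13 adenosines in the fastest quintile and 7 in the slowest, and at the 95th percentile no quintile changed by more than 1.2. Across mRNAs, which share libraries and depth and are not replicates, Spearman's rho between slope and tail change was -0.36 for the mean tail, -0.67 for the 5th percentile and 0.05 for the 95th. Abundance in the same control libraries gave -0.35 for the mean and -0.50 for the 5th percentile, so decay and abundance moved together with the change, and their parts were not tested. Against the second wild-type column the mean tail changed by 8.43 adenosines in the fastest quintile and 6.29 in the slowest.

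**Figure D3:**
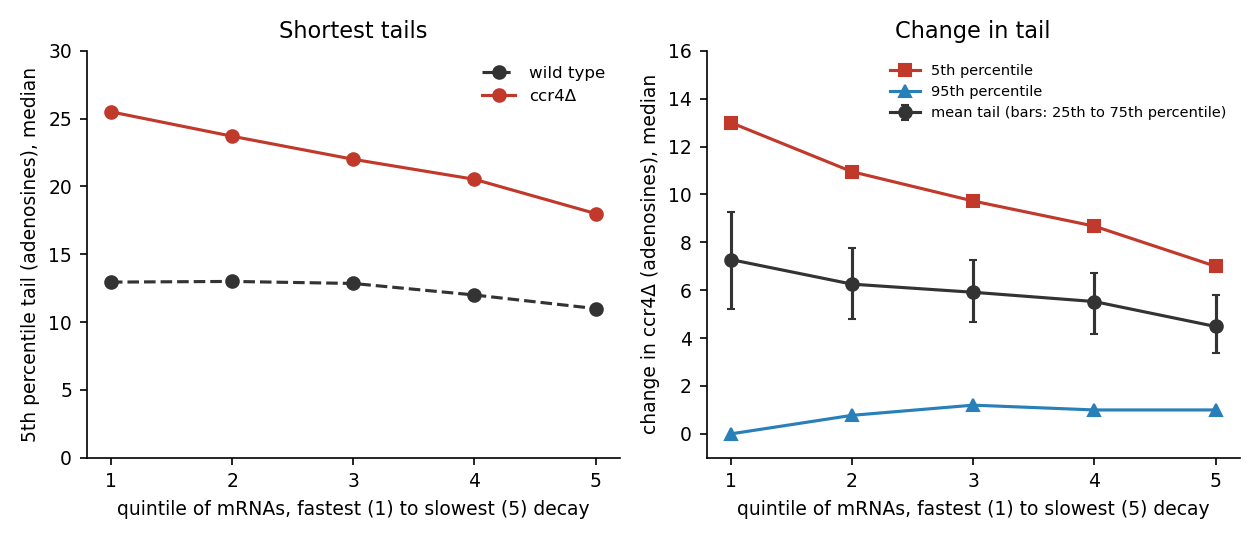
Left, median 5th percentile tail in adenosines for quintiles of 292 mRNAs ranked by decay slope after Mex67 depletion, from the fastest (1) to the slowest (5), in the wild-type pool (dashed) and the ccr4Δ pool (red). Right, median change in ccr4Δ of the mean tail (black, bars from the lower to the upper quartile), the 5th percentile (red) and the 95th percentile (blue); the 5th percentile change goes from 13 to 7 adenosines.

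As a group, the mRNAs of the deadenylase subunits had tail changes close to those of all mRNAs. All 10 of Ccr4-Not and Pan2-Pan3 that had enough reads were longer in ccr4Δ, beside 96.5% of all mRNAs, and 5 of them by at least 5 adenosines, beside 66.9%, with a median change of 6.10. The largest changes were in CDC39, which encodes the scaffold Not1, and CAF130, a subunit of the core complex. CDC39 (chromosome III, 280043 to 286522, plus strand) had a mean of 43.2 adenosines in wild type, 40.1 in the second wild-type column and 61.0 in the ccr4Δ pool, with 61.0 and 61.1 in the sub-pools, a change of 17.8 ± 2.1. Its 5th percentile went from 9 to 35.2 and its 95th from 76.3 to 92.7, a gain at both ends. CAF130 went from 37.7 to 55.3 (17.7 ± 2.8), NOT3, a regulatory subunit, from 37.1 to 49.8 (12.7 ± 2.4), MOT2 (Not4), the ubiquitin ligase of the complex, from 44.9 to 54.3 (9.37 ± 3.2), and POP2 from 36.1 to 44.8 (8.72 ± 1.7). The other members, CDC36, NOT5, CAF40, PAN2 and PAN3, gained 1.65 to 3.48 adenosines.

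In abundance, CAF40 stood out among them against the main wild-type pool. This subunit, known as Caf40 or Rcd1, binds the scaffold Not1, and its mRNA (chromosome XIV, 90172 to 91563, plus strand) had 194 rpm in the ccr4Δ pool, with 195 and 193 in the sub-pools. The main wild-type pool had 70.0, the second column 82.2 and the 5 libraries 60.9 to 105, all below every ccr4Δ value. The level was 2.77-fold higher, a log2 change of 1.47 (counting interval 1.26 to 1.68). Against the main wild-type pool, the other members had log2 changes between -0.40 for PAN2 and 0.60 for MOT2. POP2 was at 0.20, NOT5 at 0.35 and NOT3 at -0.24. Against the second column these other members ran from 0.16 for CDC36 to 1.35 for CDC39, above the 1.24 of CAF40. NOT5 was at 1.08 there and PAN2 at 0.76.

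Histone mRNAs, which are made in S phase and turn over fast, had larger tail changes than most. All 10 were longer (96.5% of all mRNAs were), with medians of 38.2 and 47.0 adenosines and a median change of 9.25, beside 6.42 over all mRNAs. HHF1, for histone H4, went from 40.9 to 54.1 adenosines (54.1 and 54.0 in the sub-pools), a change of 13.2 ± 0.44 from 5205 and 2376 reads. HTA1, for histone H2A, went from 36.7 to 47.7, and its 5th percentile from 11 to 25. HHT2, one of the H3 genes, and HTZ1, for the variant H2A.Z, changed least, by 4.15 ± 0.36 and 4.26 ± 1.3. The histone levels showed no such change, with a median log2 change of -0.11 and no member past 2-fold.

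Of the cell cycle regulators, 25 of 26 were longer, near the 96.5% of all mRNAs, and 21 by at least 5 adenosines (80.8%, beside 66.9%), with a median change of 8.62. PCL1, a cyclin of the G1 phase, went from 36.4 to 53.3 (16.9 ± 2.6). MBP1, part of the factor that drives genes at the start of S phase, went from 30.4 to 55.5 against the main wild-type pool, but the second wild-type column held 56.6, so its change rests on the reference. For ribosome biogenesis factors, 112 of 114 were longer, near the share of all mRNAs, and 93 by at least 5 adenosines (81.6%, beside 66.9%), with a median change of 7.36. The mRNAs of translation factors gained less, 5.34 adenosines, and were uneven: SUI1, for the initiation factor eIF1, went from 33.7 to 42.4 (8.72 ± 0.44), while TEF1, for elongation factor eEF1A and read 23169 and 41628 times, went from 30.0 to 30.8 (0.852 ± 0.11). TEF1 still gained at the short end, from 9 to 13 adenosines, and lost at the long end, from 60 to 56. Glycolytic mRNAs gained 4.16 adenosines and FBA1, for aldolase, changed from 29.3 to 33.4 (4.08 ± 0.11). Against the second wild-type column the order of these groups differed. Cell cycle regulators gained 7.61 adenosines there, ribosome biogenesis factors 5.33 and translation factors 5.28, beside 8.94 for all mRNAs taken the same way. The larger gain of cell cycle and ribosome biogenesis mRNAs than of all mRNAs therefore rests on the main wild-type pool.

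Where each pool held 100 reads or more, the largest lengthening was that of BDF1, for a bromodomain protein that binds acetylated histones. BDF1 had a mean tail of 33.1 adenosines in wild type, 38 in the second wild-type column and 53.5 in ccr4Δ (52.8 and 54.5 in the sub-pools), a change of 20.4 ± 2.2. Its median tail was 22 adenosines in wild type and 49 in ccr4Δ, and its 5th percentile 6 and 30.6. BDF2, its paralog, was also among the 12 with the largest change, from 43.0 to 61.2 (18.2 ± 2.6). ALD5, for a mitochondrial aldehyde dehydrogenase, went from 47.2 to 65.7 (18.5 ± 1.2), with 66.8 and 64.8 in the sub-pools and 43.2 in the second wild-type column. Further members were SOK1, a suppressor of protein kinase A defects, from 35.5 to 55.0, UBP10, which removes ubiquitin from histones, from 38.9 to 57.8, GPR1, the glucose-sensing receptor, from 39.6 to 57.5, NUP1, a nuclear pore protein, from 34.1 to 52.1, and SNF6, a subunit of the SWI/SNF remodeller, from 41.7 to 58.6. In each of them the 95th percentile was longer too, by 5.95 to 25.5 adenosines.

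The mRNAs with the smallest tail changes were mostly ones with long tails in the main wild-type pool. TDH1, the glyceraldehyde-3-phosphate dehydrogenase isozyme of stressed cells, had 60.3 adenosines there and 53.8 in ccr4Δ, a change of -6.45 ± 0.89, but 35.8 in the second wild-type column. HXT7 (YDR342C), a high-affinity glucose transporter, had 54.6 and 48.7, and 36.3 in the second column. SDH4, a subunit of succinate dehydrogenase, had 45.4 and 40.8 (38.7), HSP26, a small heat shock protein, 47.4 and 44.1 (34.5), and HSP12, a membrane protein of stressed cells, 42.8 and 39.5 (28.4). Shorter in ccr4Δ than in one wild-type pool, these mRNAs were all longer than in the other, and no direction can be given for them. TDH1 and HXT7 also have near-identical paralogs that can share reads.

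Among the decay factors, DCP2, for the decapping enzyme, went from 41.5 to 55.1 adenosines (13.6 ± 2.0), and UPF3, of the nonsense-mediated decay pathway, from 38.2 to 53.5 (15.3 ± 3.2). PUF4, for an RNA-binding protein of the Pumilio family, gained 13.4 ± 1.7. PAB1 gained 1.37 ± 0.86, and NAB2, which binds nuclear poly(A), changed by -5.68 ± 2.6. None of the 15 decapping and decay mRNAs differed 2-fold in level.

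In abundance most transcripts differed little. The median log2 change was 0.05, with -0.26 and 0.39 at the quartiles. At least 2-fold higher in ccr4Δ were 240 transcripts (4.66%), 223 of them mRNAs (4.63%), and at least 2-fold lower were 99 (1.92%), 66 of them mRNAs (1.37%). Against the second wild-type column, the counts were 587 (11.7%) and 388 (7.77%) of 4996. Only 51 transcripts (0.99%) were at least 2-fold higher, and 30 (0.582%) at least 2-fold lower, in both sub-pools and against both wild-type columns at once. The genes described first come from that smaller set, a criterion chosen after the data were seen. Of these transcripts, 44 and 22 lay outside the listed mating genes, the mating loci and ENO1. They still hold AFB1 (YLR040C, log2 change 4.68), SUT226 (3.81), CUT460 (-5.30) and XUT_3F-6 (-3.91). Whether these or others follow the mating type was not tested. The mutant scale itself moved with the reference, since the median over all transcripts was 0.05 to 0.51 depending on the wild-type reference.

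Of the higher transcripts, several encode proteins of the cell wall. HSP150, a secreted mannoprotein of the wall (chromosome X, 120267 to 121992, plus strand), had 3801 rpm in the ccr4Δ pool and 3222 and 4254 in the sub-pools, against 800.1 in the wild-type pool, 1137 in the second column and 756 to 1489 in the 5 libraries. It was 4.75-fold higher, a log2 change of 2.25 (2.19 to 2.30), with no overlap of the strains. SED1, another abundant wall protein, had 3895 rpm against 777 in the main wild-type pool, but 3258 in the second column and up to 2313 in the libraries. PIR3, of the same family as HSP150, had the largest log2 change in the list, 3.30 (152 against 32 reads), and was lower than the second column by 0.72. The 40 cell wall transcripts had a median log2 change of 0.56, 10 of them at least 2-fold higher (25.0%, beside 4.66% of all transcripts) and none lower (beside 1.92%), and 0.12 to 0.70 over the other references. Against the second column the median was 0.12, beside 0.23 for all transcripts, and against the thiolutin chase control 0.21, beside 0.25. It lay above that of all transcripts against the remaining references only.

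The genes that part daughter from mother cells were higher together. These are expressed in daughter cells at the end of mitosis and encode enzymes that digest the septum. Their median log2 change was 0.98 over 10 members, 0.96 and 1.09 in the sub-pools and 0.45 to 1.42 over the other references, beside 0.05 for all transcripts, with 5 members at least 2-fold higher, beside 4.66% of all, and none lower. SCW11, a wall glucanase (chromosome VII, 440976 to 443071, minus strand), had 529 rpm in ccr4Δ (527 and 531 in the sub-pools), 139 in wild type, 207 in the second column and 93.0 to 182 in the libraries, a 3.81-fold difference. Its mean tail went from 52.0 to 60.5 adenosines. DSE4, another glucanase, had 215 rpm against 92.1, 71.5 and 61.9 to 98.1, a log2 change of 1.22 (1.04 to 1.41). AMN1, which shuts off mitotic exit in daughters, had 325 against 149 and a log2 change of 1.12, and SUN4, a wall protein of septation, 0.89. PRY3 was uneven, with 1.08 in the pool but 0.08 and 1.56 in the sub-pools. ASH1, the repressor of mating type switching in daughters, had a log2 change of 0.10. The tails of this group had a median change of 8.11 adenosines, with DSE1 from 51.7 to 64.1 and AMN1 from 45.3 to 56.1.

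MEP2 and DAL5, of nitrogen supply, and CIT2, of carbon supply, were also in the higher set. MEP2, an ammonium permease, had 343 rpm in ccr4Δ (466 and 248), 74.4 in wild type and 11.6 to 99.7 in all other references. DAL5, a permease for allantoate, had 46.2 (62.4 and 33.6) against 11.2, and at most 14.1 elsewhere. CIT2, the peroxisomal citrate synthase, had 488 (566 and 427) against 107, 222 in the second column and 72.6 to 128 in the libraries. For all 3, both sub-pools lay above every wild-type reference, at log2 changes of 2.21, 2.04 and 2.19. CIT2 did not stand for its group. It was the highest of 4 tested transcripts of gluconeogenesis and the glyoxylate cycle, whose median log2 change was -0.01, with 2 above and 2 below 0.

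DNA synthesis and the cell cycle were represented by few genes. RNR1, the large subunit of ribonucleotide reductase, had 389 rpm (325 and 439) against 161, 135 in the second column and 165 to 209 in the libraries, 2.41-fold higher. CDC6, which loads the replicative helicase, had 27.4 rpm in ccr4Δ and 8.34, 7.80 and 3.54 to 12.8 in the references, though from 64 and 41 reads. As groups, the 26 cell cycle transcripts had a median of 0.55 (0.30 to 0.77 over the other references), 7 of them at least 2-fold higher (26.9%), and the 13 of DNA damage and ribonucleotide reduction one of 0.37 (0.19 to 0.92), 2 of them at least 2-fold higher (15.4%), beside 4.66% of all transcripts. Against heat chase control B these medians were 0.37 and 0.35, below the 0.44 of all transcripts. The DNA damage group was also below all transcripts against the second column, with 0.19 beside 0.23. Against the remaining references both groups lay above all transcripts.

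**Figure D4:**
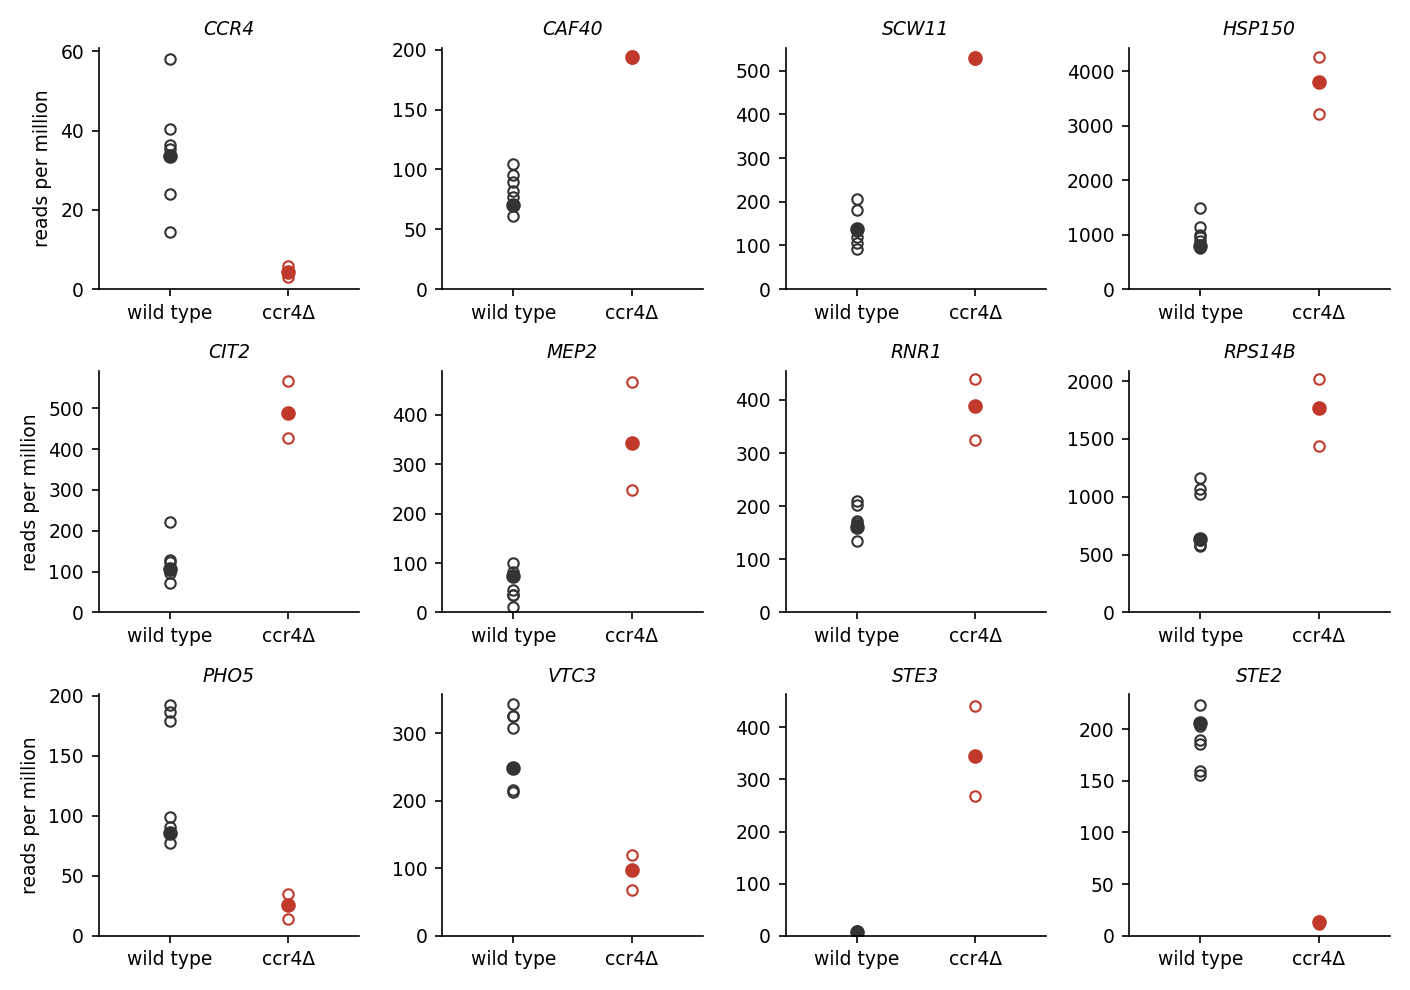
Level in rpm of 12 genes in the wild-type references (black, 7 values) and in ccr4Δ (red, the pool and both sub-pools). Filled points are the main pools, open points the other wild-type references and the ccr4Δ sub-pools, and each vertical axis starts at 0; for HSP150 the ccr4Δ values of 3222 to 4254 lie above the wild-type values of 756 to 1489.

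The machinery of translation changed little in level. Of the RPG mRNAs, 92 were below and 37 above 0, the median log2 change was -0.11, and RPS14B was the only one past 2-fold. RPS14B (chromosome X, 73754 to 74745, plus strand), for a ribosomal protein known to bind and repress its own pre-mRNA, had 1764 rpm in ccr4Δ (1443 and 2015), 631 and 573 in both wild-type columns and 582 to 1159 in the libraries. Its paralog shares much of its sequence, so reads may be split unevenly between both genes. The 114 ribosome biogenesis transcripts had a median of -0.12 and the 35 translation factors one of -0.17. The sign of these medians depended on the reference, with 0.42 for RPG against the second wild-type column and 1.09 for ribosome biogenesis.

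Mitochondrial ribosomal protein mRNAs are the classic targets of Puf3, a Pumilio protein that binds a short motif in the untranslated end of the mRNA and recruits Ccr4-Not. Of 72 such mRNAs, 71 were above 0 against the main wild-type pool, 16 of them at least 2-fold (22.2% beside 4.63% of all mRNAs), with a median log2 change of 0.74, and 1.03 and 0.58 in the sub-pools. Against the second wild-type column, however, the median was -0.01, that column being itself 0.75 above the main wild-type pool for this group. MRPL23, a large subunit protein, had 188 rpm in ccr4Δ, 75.3 in the main wild-type pool, 210 in the second column and 46.5 to 102 in the libraries. MRPL32 had 107 in ccr4Δ, 43.5 and 58.3 in both wild-type columns and at most 49.4 in the libraries. MRP4 was the member below 0, with 34.7 in ccr4Δ and 40.3 and 79.1 in both wild-type columns. Their tails followed the bulk of mRNAs, with a median change of 6.22 adenosines and 70 of 71 longer, beside 96.5% of all.

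The Puf3 motif TGTANATA was searched on the sense strand in the last 300 bases of each transcript, and was present in 62 of the 72 mitochondrial ribosomal protein mRNAs and in 702 of all 5838 mRNAs (12.0%). The stretches around it, in genome sequence of the R64 reference with the motif in capitals, are shown for members with the largest and smallest changes in level and tail, because the motif defines the group that Puf3 is known for.
MRPL23 (chrXV:612535-612564, plus strand): tcttcaatccaTGTATATAtttatctgtta
MRPL32 (chrIII:119206-119235, plus strand): aaacttaagccTGTATATAgaaacttaatt
MRPL9 (chrVII:936023-936052, minus strand): tactacaatcaTGTACATAcatcaataata
MRPL7 (chrIV:937564-937593, plus strand): cccattcgtcaTGTAAATAtataaactgta
MRP4 (chrVIII:100429-100458, plus strand): taacctaaactTGTACATAtgcccatatat

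The same core occurred in members with different changes. MRPL23 and MRPL32 carry the same core and had log2 level changes of 1.32 and 1.29, while MRPL9 and MRP4 share another core and had 0.96 and -0.21. MRPL7 had the largest tail change of the group, from 40.4 to 53.5 adenosines (13.2 ± 1.9), and MRPL23 one of 0.686 ± 1.3. Over all mRNAs with enough reads, the median log2 change was 0.04 without the motif, 0.23 with 1 motif and 0.40 with 2 or more, and against the second wild-type column the order was the opposite, with 0.28, 0.06 and -0.03. The median tail change was 6.39, 6.51 and 6.66 adenosines. A match is a stretch of letters, and binding was not measured.

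Genes of phosphate supply were among the lower transcripts. PHO5, a secreted acid phosphatase, had 25.2 rpm in ccr4Δ (13.7 and 34.3), 85.6 and 98.6 in both wild-type columns and 77.5 to 192 in the libraries, 3.37-fold lower. PHO12 (YHR215W) and PHO11 (YAR071W), which encode phosphatases so alike that their reads cannot be separated with confidence, were 5.87-fold and 5.59-fold lower. VTC3, of the complex that makes polyphosphate, had 96.7 (68.2 and 119) against 249, 213 and 217 to 344. PHM6, a phosphate-regulated gene, had 21.0 (10.7 and 29.0) against 66.1, 83.2 and 43.5 to 174. In each of these the strains did not overlap. Of 20 transcripts of this group 5 were at least 2-fold lower, beside 1.92% of all transcripts, and 1 was higher, near the 4.66% of all, the median log2 change was -0.58, and the sub-pools differed, with -1.24 and -0.10. The high-affinity transporter PHO84 had log2 changes of -1.87 and 0.65 in the sub-pools and 0.00 in the pool. The lower group median was not particular to ccr4Δ. Against the same wild-type pool, the phosphate group had a median log2 change of -0.48 in the PAN2 deletion and -0.96 in the POP2 deletion. The medians over all transcripts in these deletions were -0.26 and 0.52.

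Other lower genes were MET10, a subunit of sulfite reductase, with 17.1 rpm against 53.9 and 102 in both wild-type columns but 11.6 to 51.4 in the libraries, and the sterol genes. Of 26 ergosterol transcripts 22 were below 0, with a median of -0.39, -0.61 and -0.23 in the sub-pools and -0.56 to -0.14 over the other references. ERG6, a sterol methyltransferase, had 122 rpm (124 and 120) against 261, 233 and 244 to 290, and ERG28, a scaffold of the sterol enzymes, 157 (193 and 130) against 353, 379 and 239 to 417. Both were at least 2-fold lower than the main wild-type pool and lower than every other reference.

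**Figure D5:**
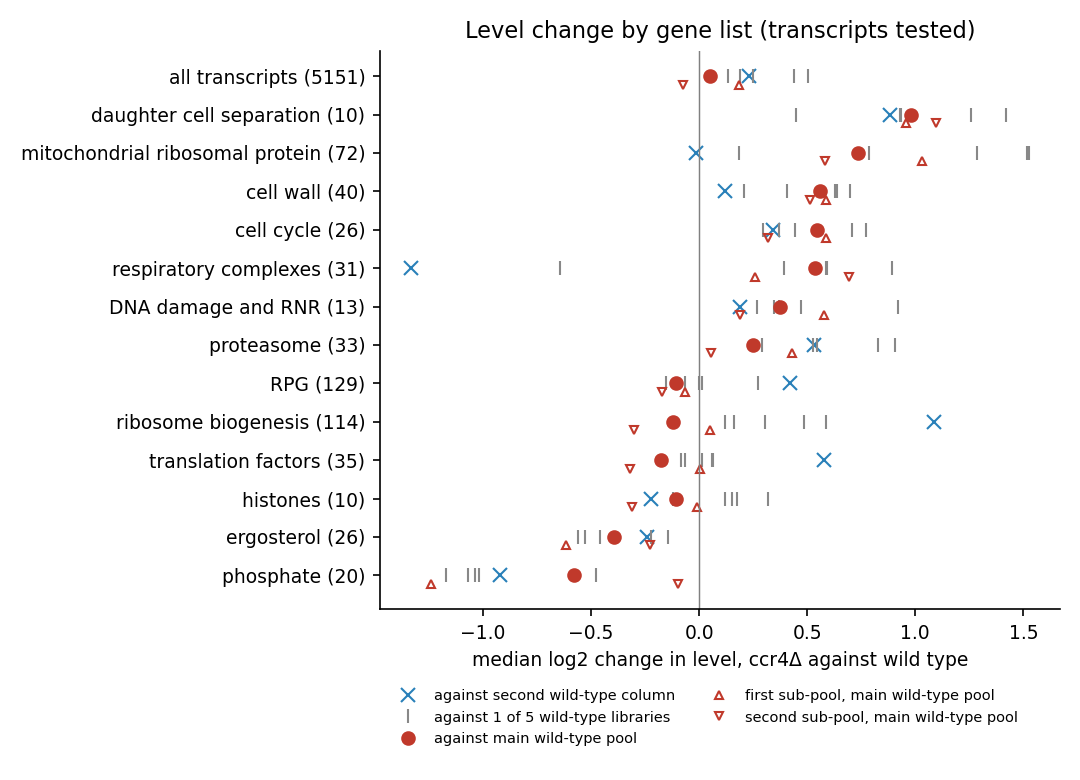
Median log2 change in level of 14 gene groups, with the number of transcripts tested, in the ccr4Δ pool (red circles) and its sub-pools (open triangles) against the main wild-type pool, and in the ccr4Δ pool against the second wild-type column (blue crosses) and 5 wild-type libraries (grey bars). Daughter cell separation lies at 0.45 to 1.42 over all references and phosphate at -1.17 to -0.48, whereas mitochondrial ribosomal protein and respiratory complexes reach -0.01 and -1.33 against the second column.

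Non-coding transcripts were read less often, and their reads may in part come from overlapping genes. Of 179 XUTs, antisense and intergenic RNAs that Xrn1 degrades, 8 were at least 2-fold higher (4.47%, near the 4.66% of all transcripts) and 15 lower (8.38%, beside 1.92%), with a median log2 change of -0.09. Of 61 CUTs, which the nuclear exosome removes, none was higher and 7 were lower (11.5%), at a median of -0.24, and of 29 SUTs, a stable class, 3 were higher and 3 lower (10.3% each). The XUT with the lowest log2 change overlaps HMRA1 at the silent mating locus (chromosome III, 293836 to 294321). XUT_3F-6 and XUT_3F-5, named here after their values were seen, lie elsewhere on that chromosome (30658 to 31231 and 29541 to 30536). They had 13 and 7 reads against 427 and 221, and whether this follows the mating type was not tested.

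Across the mRNAs with a decay slope, Spearman's rho between the slope and the level change was -0.26 over 1462 mRNAs (-0.33 against the second column), the fastest quintile having a median log2 change of 0.19 and the slowest one of -0.16. Between the change of the mean tail and the level change it was -0.10 over 4292 mRNAs. For example, HSP150, 4.75-fold higher, gained 1.78 ± 0.38 adenosines, and HHF1, with a gain of 13.2 adenosines, had a log2 level change of -0.06.

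The deletion of the other deadenylase subunits was read against the same wild-type pool, so values are only set side by side. In pan2Δ the median change of the mean tail was 6.66 adenosines over 3937 mRNAs, with 2 at the 5th percentile and 10.9 at the 95th. Against this pool ccr4Δ had 12 and 0.35, but 2.8 to 8.25 at the 95th percentile against the other wild-type references. In pop2Δ the mean tail changed by 0.36 adenosines over 1773 mRNAs, with a gain of 4.35 at the 5th percentile and a change of -4.6 at the 95th. Wild-type references differed from this pool by more. Undigested wild-type RNA had a median difference of -3.30 adenosines in the mean tail, and the second wild-type column one of -7 at the 95th percentile. No direction can therefore be given for pop2Δ in the mean tail or at the 95th percentile. HSP150, SCW11 and CAF40 had 7219, 852 and 307 rpm in pop2Δ, while pan2Δ had 690, 102 and 59.2.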

How the data were processed

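Direct RNA sequencing reads of poly(A)-selected RNA were processed by the authors. Reads were aligned by them to their own set of yeast transcripts (minimap2 2.17), and they kept primary sense alignments with SAMtools 1.9 and estimated tails with Nanopolish, keeping estimates that passed its quality control. The submitters' notes name sacCer3, which is the R64 assembly. Counts, as deposited, are whole reads per transcript, without normalization and pooled over samples, and which samples enter each pool is not given in the sources used here. Tail lengths, as deposited, are means, medians and quantiles in adenosines. Of 1320 value columns, 216 were used and 1104 were not.

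Levels were reads over the pool total without ENO2, with 0.5 reads added before a ratio, and required at least 30 reads in one pool. Fold changes were called at 2-fold, and their intervals (95%) are exact binomial ones that cover counting error only. Tail changes required 30 reads in both pools. The second ccr4Δ sub-pool is the pool less the first sub-pool, whose counts never exceed those of the pool. Starts in transcript names count from 0 and were raised by 1; 99.9% of the 5399 mRNAs with a systematic name known to R64 overlapped their gene. No test was possible with 1 pool per strain. Analyses used Python 3.11.15, pandas 2.3.3, numpy 2.4.6, scipy 1.17.1 and matplotlib 3.10.9, and the procedures were tested on simulated data. Gene lists and comparisons were chosen with earlier results of these data known. The genes named were CCR4, the deadenylase subunits, strain and mating type markers, genes named by the study, the mRNAs with the largest changes in level or tail among those with at least 100 reads, and the extremes of each list. Others were chosen after their values were seen: the genes picked because they differed 2-fold in both sub-pools and against both wild-type columns, PHO84, the transcripts of the mating loci and the non-coding transcripts. Alternatives covered the read minimum, denominator, added reads, tail summary and wild-type reference.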

Additional observations from a re-analysis of the deposited data

How the results depend on the processing

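Of 212 values recomputed for 23 results, 124 moved by less than their allowance, 85 moved and 3 reversed. A gene group was counted as reversed only where its main median was large, so sign changes of small medians are among the other counts. Against the second wild-type column, for example, RPG mRNAs went from -0.11 to 0.42 and general stress transcripts from 0.19 to -0.26. The lengthening of the mean tail over mRNAs (6.42 adenosines) was 4.73 when mRNAs were weighted by reads, 9.44 against undigested wild-type RNA, 9.22 and 9.84 against the heat chase controls A and B, and 8.88 against the second wild-type column. At the 5th percentile (12) it was 10.3 with 100 reads in both pools, 10.1, 10.0 and 8.0 against the heat chase controls A, B and D, and 9.75 against the thiolutin control. At the 95th percentile (0.35) it was 7.0 against undigested RNA, 6.43, 8.25 and 6.0 against the heat chase controls, and 7.9 against the second column. The share of longer mRNAs (96.5%) was 94.6% at 10 reads, 97.9% at 100 reads, 98.6% against the second column, and 97.7% and 94.4% in the sub-pools. The smaller change of abundant mRNAs (-2.45 adenosines relative to others) and of RPG mRNAs (-2.63) became -3.74 and -3.70 against the second column.

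The 240 transcripts at least 2-fold higher were 141 at 100 reads, 474 in the first sub-pool, 587 against the second column, 1317, 1162 and 1203 against the heat chase controls, 674 against the thiolutin control, and 51 with both sub-pools and both columns required. The 99 at least 2-fold lower were 152 with ENO2 in the total, 50 with 5 reads added, 196 at 10 reads, 41 at 100 reads, 254 in the second sub-pool, 285 against heat chase control D, 388 against the second column, and 30 with all required. The median log2 change of daughter cell separation genes was 1.42 against heat chase control B and 0.45 against the thiolutin control. For mitochondrial ribosomal protein mRNAs it was 1.53 and 1.52 against heat chase controls A and B and reversed to -0.014 against the second column. For RPG mRNAs it was 0.27 against the thiolutin control and 0.42 against the second column, and for respiratory complexes it reversed to -0.64 and -1.33 against these. The cause was not tested. The second column, the sub-pools and the combined requirement were chosen after seeing the data.

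No paired analysis was possible because both strains have pooled columns only, which also precluded leaving out a replicate. Depth limits the tail changes of mRNAs with few reads, and the smallest wild-type library held 86022 reads.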

Other observations

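Carbon supply and stress genes differed between the wild-type references more than between the strains. The 31 transcripts of respiratory complexes had a median log2 change of 0.53 against the main wild-type pool, with 5 members at least 2-fold higher (16.1%, beside 4.66% of all transcripts), and the second wild-type column was itself 1.78 above the main pool for this group. The 34 general stress transcripts had a median of 0.19, with 4 at least 2-fold higher (11.8%) and 2 lower (5.88%, beside 1.92% of all transcripts), and -0.26 to 2.18 over the other references. Of 10 hexose transporters, 4 were at least 2-fold higher and 1 lower, beside the same 4.66% and 1.92%. HXT4, a high-affinity transporter, had 526 rpm (reads for each 1000000 reads) in ccr4Δ, 137 in the main wild-type pool and 24.8 to 244 in the libraries, and a log2 change of 0.80 against the second column. HXT1, a low-affinity transporter, had a log2 change of -0.93 against the main pool and 4.82 against the second column.

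Proteasome and amino acid biosynthesis mRNAs followed the tails of all mRNAs, of which 96.5% were longer and whose median change was 6.42 adenosines. The 33 proteasome transcripts had a median log2 change of 0.25, with 0.29 to 0.91 over the other references, and all 33 had longer tails in ccr4Δ, by a median of 6.25 adenosines. The 59 amino acid biosynthesis mRNAs had a median level change of -0.12, with 3 at least 2-fold higher (5.08%) and 2 lower (3.39%), and all 59 had longer tails, by a median of 5.38.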
